A study of Mus musculus with 24 samples.

Results

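The comparison reported here asks how loss of Lyn changed the response of dendritic cells to CpG-B. It is the difference of 2 responses: Lyn-KO cells with CpG-B minus unstimulated (US) Lyn-KO cells, less WT cells with CpG-B minus unstimulated WT cells. Each of these 4 groups had 3 arrays, so that 12 of the 24 arrays of the series entered the contrast. The other 12 arrays are labelled DKO, for knockout of both Lyn and Irf5, and Irf5-KO, with and without CpG-B, again 3 arrays a group. All cells were grown from bone marrow of mice on a C57BL/6 background with the growth factor Flt3 ligand at 100 ng/ml and were harvested on day 9. CpG-B was given at 150 nM for 6 h. How the Lyn and Irf5 alleles were made, and whether a culture came from 1 animal or from a pool, is not stated by the sources used here. Triplicates are called biological by the submitters, and p-values measure the spread between these samples.

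Lyn is a tyrosine kinase of the Src family. It phosphorylates activating receptors as well as inhibitory ones, which then recruit phosphatases such as SHP-1 (Ptpn6), and it has been reported to bind the transcription factor Irf5 and to restrain it. CpG-B is a synthetic DNA that engages Toll-like receptor 9 in endosomes, and the adaptor MyD88 passes the signal on to NF-kB, MAP kinases and interferon regulatory factors. Type I interferons released by the cells act back through their receptor and STAT proteins on a large set of interferon-stimulated genes. Cultures with Flt3 ligand yield plasmacytoid dendritic cells, which are specialised producers of type I interferon, beside conventional dendritic cells.

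Levels are given as log2 of the processed array signal minus the 75th percentile of the same array, so that 0 is the 75th percentile and a difference of 1 is 2-fold. A level below 0 is therefore no sign of an absent transcript, and levels of different genes are not comparable. A set of 3 differences is used for every gene. The difference at the start is unstimulated Lyn-KO minus unstimulated WT, the difference with CpG-B is the same between stimulated cells, and the change of the response is the second minus the first. The change of the response therefore shares all its arrays with the other 2 differences and is not independent of them. A response is called larger where this change is positive, which includes a weaker fall with CpG-B. It is called smaller where the change is negative, which includes a deeper fall. A feature, either a named gene or an unnamed transcript, counted as changed or different where limma gave it an adjusted p under 0.05 (Benjamini-Hochberg over all 20209 features tested, 2-sided). All adjusted p-values below are of this kind, and errors after ± are standard errors unless SD is written.

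Lyn itself, which checks the labels, stood at -0.23 on each of the 3 arrays of Lyn-KO cells with CpG-B, against 2.29, 2.17 and 2.19 in WT cells with CpG-B. In unstimulated cells Lyn was at -0.93, -0.87 and -0.75 in Lyn-KO cells, against 0.75, 1.13 and 1.04 in WT cells. The groups did not overlap in either state. The probe stayed above background in Lyn-KO cells, and its place relative to the deleted part is not given, so its own response is not read as a response of the gene. Arrays of a group correlated at 0.991 to 0.995, and on each array 41.0% to 53.8% of spots exceeded the background clearly.

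The CpG-B response of 2237 of 20209 features (11.1%) changed with loss of Lyn, 1222 of them upwards (6.05%) and 1015 downwards (5.02%). With each array scaled to the median of the probes detected on all arrays, 996 went upwards and 1232 downwards, and without the filter on dim probes 1395 features were called. The change was at least 2-fold for 535 features (2.65%). Without adjustment, 4662 features had a p under 0.05. The responses themselves were far wider, with 13922 features (68.9%) called in Lyn-KO cells, 32.8% up and 36.1% down, and 13837 (68.5%) in WT cells, 31.2% up and 37.2% down. Of the features with a changed response, 473 rose with CpG-B in WT cells and rose more in Lyn-KO cells, and 486 rose in WT cells and rose less or not detectably in Lyn-KO cells. A further 533 fell in WT cells and fell less or not detectably in Lyn-KO cells, and 346 fell in WT cells and fell further in Lyn-KO cells. The responses were called in opposite directions in 61 features on each side. A response was called in Lyn-KO cells alone for 155 features with a positive and 121 with a negative change. In 1 feature a response was called in neither genotype.

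Most of the changed responses came with a difference that was called with CpG-B and not at the start. At the start 925 features (4.58%) differed between Lyn-KO and WT cells, 369 of them higher in Lyn-KO cells (1.83%) and 556 lower (2.75%). That balance turned round without unstimulated Lyn-KO replicate 1, with 569 higher and 494 lower. With CpG-B 5084 features (25.2%) differed, 2818 of them higher (13.9%) and 2266 lower (11.2%), against 2490 higher and 2558 lower with scaling to the median. Of the 2237 changed responses, 1834 (82.0%) differed with CpG-B only, 163 (7.29%) at the start only, 134 at both, and 106 at neither. Here and below, only means that the difference was not called in the other state, not that it was absent there. The 2 differences were adjusted separately, so a call at the start, where fewer features were called, needed a smaller unadjusted p. Without adjustment, limma gave 3290 features a p under 0.05 at the start and 7316 with CpG-B. Where the difference was with CpG-B only, 961 features had a larger response, with a median difference of -0.02 at the start and 0.57 with CpG-B, and 873 had a smaller one, with medians of 0.03 and -0.60. Where it was at the start only, 123 of the 163 features had a larger response, and their median difference was -0.69 at the start and 0.06 with CpG-B. The other 40 had medians of 0.79 and -0.16. These classes were defined by the calls on the same arrays, so their medians follow from the selection and are no separate evidence. Of the 134 that differed at both, 68 changed sides and 66 kept the same direction. Without unstimulated Lyn-KO replicate 3, 593 features were called at the start, 188 of them higher. The class that differed at the start only held 105 features without unstimulated WT replicate 1, and it shrank by over 1.5 times without unstimulated Lyn-KO replicate 3 as well. The class that differed at both numbered 84 without unstimulated WT replicate 3 and 75 without unstimulated Lyn-KO replicate 3, and the class of neither numbered 178 without unstimulated WT replicate 2 and 68 without WT CpG-B replicate 3.

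**Figure D1:**
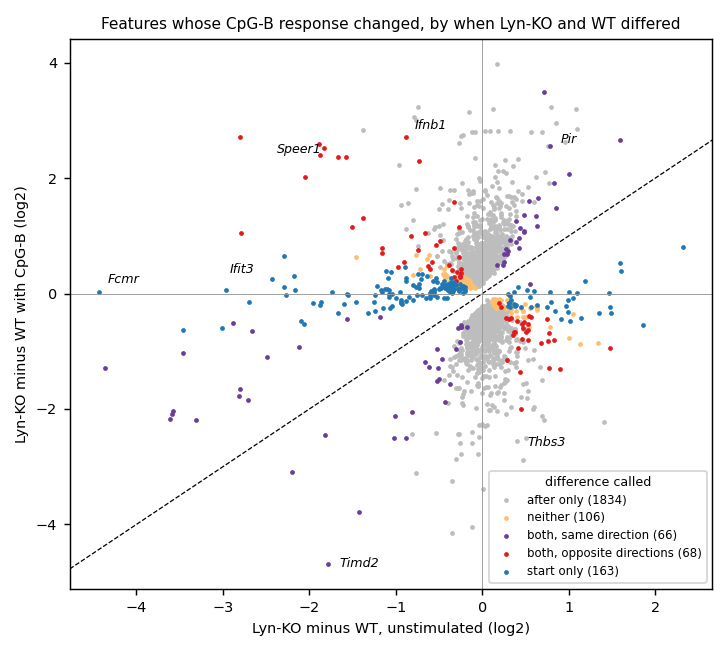
Each point is 1 of the 2237 features whose CpG-B response changed, with the log2 difference Lyn-KO minus WT in unstimulated cells on the horizontal axis and with CpG-B on the vertical axis, coloured by where that difference was called. The grey features that differed with CpG-B only (1834) lie along the vertical line at 0, the blue ones that differed at the start only (163) along the horizontal line, and the dashed line marks equal differences, that is an equal response. The colours are set by calls on the same values, so this layout follows from the selection.

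A difference at the start usually did not go with a detectable change of the response. Of the 925 features that differed at the start, 628 had no called change, and 416 of these 628 were also called in the same direction with CpG-B. The remaining 297 (32.1%) had a changed response, and in 201 of them the difference with CpG-B was smaller in size than the one at the start.

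The interferon genes had the largest median change of the 26 gene lists. The list held 20 genes, of which 14 passed the filter on dim probes. Of these 14 type I and III interferon genes, 13 had a larger response in Lyn-KO cells and none a smaller one, beside 6.05% and 5.02% of all features. Their median change was 2.87 against 0.03 over all features tested. For 5 of the 14 no array of unstimulated Lyn-KO cells was well above background, and with such groups at the lowest signal well above background the median was 2.83. Among the 4 groups, Ifna4, Ifna11, Ifna13 and Ifna16 were well above background only with CpG-B. The filter thus admits genes at the background without CpG-B only where they are induced, and the count and median rest partly on such genes. Of the 13, 12 differed with CpG-B only and 1, Ifnb1, in both states. The median difference of the 14 genes was -0.02 at the start and 2.80 with CpG-B. For Ifna4, Ifna11, Ifna13 and Ifna16 both unstimulated groups were at the background, so a difference at the start could not be seen. Their class with CpG-B only was thus fixed in advance, and the median at the start includes such background signals. The promoter sequences of Ifna4 and Ifna5 are given here with those of Ifit3 and Rsad2, because all 4 hold the letters GAAA, any 2 bases and GAAA again, a core that interferon regulatory factors and the STAT complex of interferon signalling are known to bind, although the first pair differed between genotypes with CpG-B and the second pair at the start. The windows are 300 bases long, cover the start of the gene and mostly the bases before it, are read 5' to 3' on the strand of the gene (RefSeq, GRCm38.p6), and carry the motif in capitals on whichever strand it was found.
Ifna4 (chr4:88841566-88841865, plus strand): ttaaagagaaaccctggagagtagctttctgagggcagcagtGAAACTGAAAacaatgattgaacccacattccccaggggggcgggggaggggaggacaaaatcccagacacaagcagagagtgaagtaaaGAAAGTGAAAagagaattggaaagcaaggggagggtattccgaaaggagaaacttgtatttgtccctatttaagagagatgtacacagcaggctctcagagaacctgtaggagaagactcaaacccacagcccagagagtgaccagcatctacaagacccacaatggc
Ifna5 (chr4:88835275-88835574, plus strand): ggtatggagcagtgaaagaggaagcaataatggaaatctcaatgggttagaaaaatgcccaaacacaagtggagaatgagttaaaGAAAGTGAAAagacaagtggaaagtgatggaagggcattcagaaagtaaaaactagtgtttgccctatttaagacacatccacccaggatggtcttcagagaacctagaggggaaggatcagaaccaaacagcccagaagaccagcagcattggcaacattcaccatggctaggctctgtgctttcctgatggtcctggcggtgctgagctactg
Ifit3 (chr19:34583279-34583578, plus strand): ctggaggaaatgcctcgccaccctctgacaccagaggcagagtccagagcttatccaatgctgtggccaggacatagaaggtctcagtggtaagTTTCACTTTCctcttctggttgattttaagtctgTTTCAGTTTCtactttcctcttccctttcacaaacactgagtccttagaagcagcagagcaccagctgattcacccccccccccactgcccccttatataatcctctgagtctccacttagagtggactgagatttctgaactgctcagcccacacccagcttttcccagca
Rsad2 (chr12:26456403-26456702, minus strand): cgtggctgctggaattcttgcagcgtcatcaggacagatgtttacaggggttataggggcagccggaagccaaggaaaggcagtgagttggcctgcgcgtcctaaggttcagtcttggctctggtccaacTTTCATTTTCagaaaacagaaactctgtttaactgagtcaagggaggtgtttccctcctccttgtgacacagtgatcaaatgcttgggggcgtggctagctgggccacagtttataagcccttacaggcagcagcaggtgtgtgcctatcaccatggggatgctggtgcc
This pair of GAAA blocks was searched on both strands. It was found in 3.37% of 12803 windows of all named genes tested, in 8 of 13 windows of the interferon list (61.5%) and in 26 of 62 windows of the interferon-stimulated list (41.9%). Among genes with a larger response it was in 19 of 91 windows (20.9%) of those that differed at the start only and in 37 of 825 (4.48%) of those that differed with CpG-B only. Among genes with a smaller response that differed with CpG-B only it was in 20 of 837 (2.39%). A core of NF-kB sites, GGGA followed by any 4 bases and CC, was searched in the same way and was in 26.0% of all windows, 26.6% of those with a larger response and 27.7% of those with a smaller one. The window of Ifnb1 holds no pair of GAAA blocks with the gap of 2 bases and 2 matches of the NF-kB core. It does hold GAAA blocks with wider gaps, which the search did not count, so a lack of sites for these factors is not shown. These are matches of letters, counted over windows that can belong to the same gene, and no test was made of them.

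Ifnb1, the first interferon made by many stimulated cells, stood at 4.99, 5.05 and 5.07 in Lyn-KO cells with CpG-B, against 2.47, 2.51 and 1.97 in WT cells with CpG-B. Unstimulated, it was at -3.06, -3.41 and -3.40 in Lyn-KO cells, against -1.94, -2.56 and -2.71 in WT cells. The genotypes did not overlap in either state and changed sides, Lyn-KO cells being the higher ones with CpG-B. The response was larger by 3.61 ± 0.35 in Lyn-KO cells (adjusted p = 2.14e-06), with values of 3.64, 3.40 and 3.79 within the 3 slides. The difference at the start of -0.89 ± 0.25 passed only just (adjusted p = 0.0498) and lost its call in 9 of the 12 fits that left out 1 array. Ifnb1 was above background on 1 of 3 arrays of unstimulated Lyn-KO cells and on all 3 of WT cells.

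The interferon alpha genes showed the same pattern without a called difference at the start. Ifna1 was at 4.63, 4.71 and 4.69 in Lyn-KO cells with CpG-B, against 2.26, 2.18 and 1.77 in WT cells with CpG-B, while unstimulated cells overlapped between -2.84 and -2.81 in Lyn-KO and between -2.83 and -2.39 in WT. Its response was larger by 2.87 ± 0.21 (adjusted p = 9.53e-08). Ifna5 had the largest change of the family, 3.85 ± 0.38 (adjusted p = 2.28e-06). For Ifna4, no array of unstimulated cells of either genotype was well above background, and it reached 2.12, 2.24 and 2.23 in Lyn-KO cells with CpG-B, against -0.68, -0.93 and -1.40 in WT cells with CpG-B. Its CpG-B response is therefore a bound, at least 67.0-fold in Lyn-KO cells and at least 6.88-fold in WT cells, each over the lowest signal well above background. With CpG-B, Ifna4 was higher in Lyn-KO cells by 3.20 ± 0.36 (adjusted p = 2.67e-06). Ifna2, Ifna7, Ifna11, Ifna12, Ifna14, Ifna16 and Ifnab had fitted changes of 2.11 to 3.30. The changes of Ifna4, Ifna7, Ifna11, Ifna13 and Ifna16 rest on unstimulated signals at the background and are no exact values. Ifna13 (2.23, adjusted p = 0.0192) and Ifnl3, a type III interferon (0.54, adjusted p = 0.0499), lost their calls in 2 and in 10 of the 12 leave-one-out fits, and the list then counted 11 to 13. Ifnk was not called (0.67 ± 0.27, adjusted p = 0.134). Genes of the alpha family are near copies of each other, so that a probe can pick up RNA of its neighbours and the values are not independent.

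Plasmacytoid dendritic cell markers stood higher on average in Lyn-KO cells in both states. Their mean level over 17 markers was 3.72 to 3.88 per array in Lyn-KO cells with CpG-B, against 2.95 to 3.20 in WT cells with CpG-B, and 3.83 to 4.08 in unstimulated Lyn-KO cells, against 3.63 to 3.74 in unstimulated WT cells. Of the 17 markers, 5 were higher in Lyn-KO cells at the start and 12 with CpG-B, and none was lower (medians 0.29 and 0.71). Over all features 1.83% and 13.9% were higher. Unlike the interferons, the markers had a negative median response, -0.14 in Lyn-KO cells and -0.43 in WT cells. The change was positive for 6 and negative for none (median 0.43), and all 17 were measured in each of the 4 groups. In bulk RNA, more cells of a type and more RNA per cell cannot be told apart, and the part of these markers in the interferon result was not tested.

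**Figure D2:**
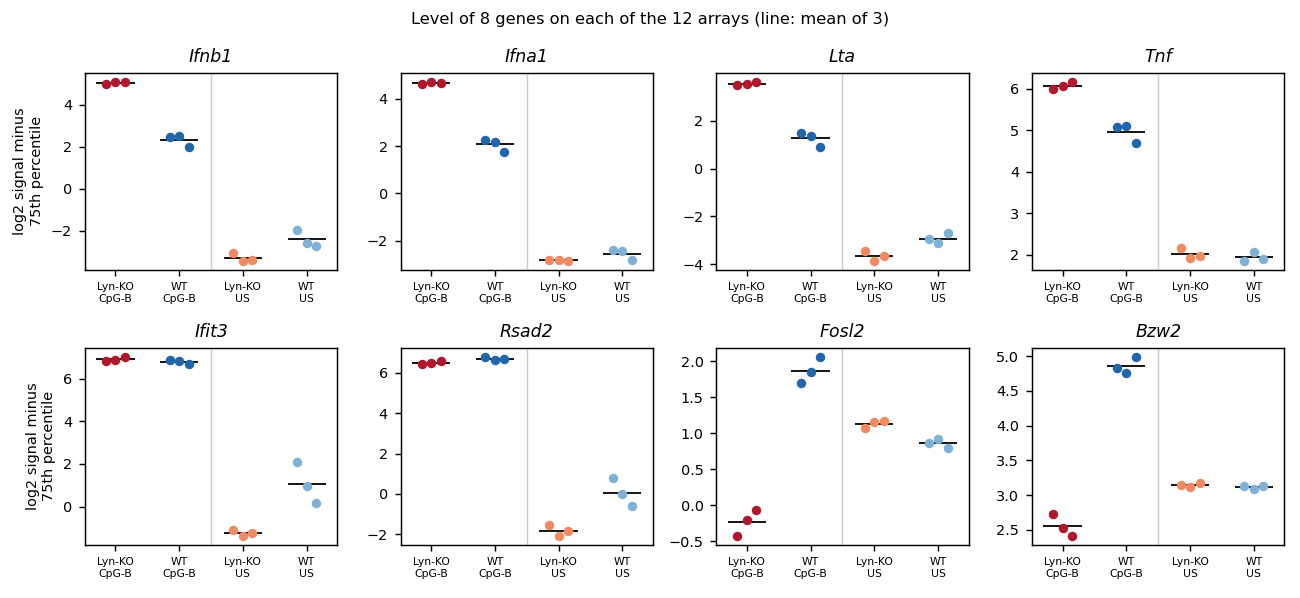
Points are the level of 1 gene on 1 array (log2 signal minus the 75th percentile of the array) in Lyn-KO and WT cells with CpG-B and unstimulated (US), and lines are means of 3 arrays. Ifnb1, Ifna1, Lta and Tnf were higher in Lyn-KO cells with CpG-B, Ifit3 and Rsad2 differed in unstimulated cells only, and Fosl2 and Bzw2 were lower in Lyn-KO cells with CpG-B.

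Among 17 inflammatory cytokine genes, 7 had a larger response and 1 a smaller one, beside 6.05% and 5.02% of all features. The median change of the 17 genes was 0.43. Lta, the gene of lymphotoxin alpha, changed most of those named here. It was at 3.52, 3.54 and 3.62 in Lyn-KO cells with CpG-B, against 1.51, 1.39 and 0.92 in WT cells with CpG-B, and its response was larger by 3.02 ± 0.26 (adjusted p = 4.21e-07). Its lower start in Lyn-KO cells (-0.73, adjusted p = 0.0249) lost its call without unstimulated WT replicate 1 or 3 or unstimulated Lyn-KO replicate 2 or 3. Tnf, the gene of tumour necrosis factor, was at 5.99, 6.05 and 6.15 in Lyn-KO cells with CpG-B, against 5.08, 5.09 and 4.68 in WT cells with CpG-B, and its unstimulated levels overlapped. Its response was larger by 1.03 ± 0.23 (adjusted p = 0.00665). Il1b, the gene of the fever-inducing cytokine interleukin 1 beta, gained 1.40 ± 0.20 (adjusted p = 0.000118), Il18, a cytokine that induces interferon gamma, 0.99 ± 0.14 (adjusted p = 8.44e-05), and Tnfsf15, the ligand TL1A, 2.05 ± 0.33 (adjusted p = 0.000376). Tnfsf9, the ligand of the costimulatory receptor 4-1BB, was the gene with a smaller response, -0.77 ± 0.13 (adjusted p = 0.000666). It stood at 5.20, 5.20 and 5.09 in Lyn-KO cells with CpG-B, against 6.10, 5.97 and 5.90 in WT cells with CpG-B. Il6 had one of the strongest responses in both genotypes, by 7.74 in Lyn-KO cells and 7.25 in WT cells, and the difference of 0.50 ± 0.17 was not called (adjusted p = 0.074).

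Il10, the gene of an anti-inflammatory cytokine, differed at the start only. It was at 2.37, 2.35 and 2.24 in Lyn-KO cells with CpG-B and at 2.43, 2.36 and 2.59 in WT cells with CpG-B, where the groups overlapped. Unstimulated, it was at -4.69, -4.57 and -4.80 in Lyn-KO cells, not well above background on any array, against -2.44, -1.93 and -1.61 in WT cells. It was thus at least 3.51-fold lower in unstimulated Lyn-KO cells (adjusted p = 5.4e-08), and its response was larger by at least 1.67 on the log2 scale (adjusted p = 4.13e-06). After normexp and quantile normalization the fitted change was 0.85.

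Of 18 chemokine genes, 12 had a larger response and none a smaller one (median change 1.18), beside 6.05% and 5.02% of all features. Of the 12, 9 differed with CpG-B only and 3 at the start only. Ccl3, a chemokine that attracts monocytes and T cells, was at 8.28, 8.37 and 8.41 in Lyn-KO cells with CpG-B, against 7.44, 7.30 and 7.30 in WT cells with CpG-B. Its response was larger by 0.95 ± 0.18 (adjusted p = 0.00142). Cxcl2, which attracts neutrophils, rose by 1.76 in Lyn-KO cells (adjusted p = 0.000209), while its response in WT cells was -0.22 and was not called (adjusted p = 0.597). The change was 1.98 ± 0.50 (adjusted p = 0.0137). Ccl17, a ligand of CCR4, gained 1.86 ± 0.37 (adjusted p = 0.00214), and Xcl1, the ligand of the receptor Xcr1, 1.67 ± 0.39 (adjusted p = 0.00821). Ccl6 fell with CpG-B by 0.27 in Lyn-KO cells and by 1.75 in WT cells, a change of 1.49 ± 0.16 (adjusted p = 7.03e-06). Cxcl10, a chemokine induced by interferons, differed at the start only: with CpG-B it was at 8.52, 8.64 and 8.82 in Lyn-KO cells, against 8.64, 8.59 and 8.68 in WT cells, and unstimulated at 2.25, 1.91 and 2.11 in Lyn-KO cells, against 4.59, 3.71 and 3.19 in WT cells.

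The interferon-stimulated genes followed Cxcl10 and not the interferons. All 61 measured rose with CpG-B in WT cells, beside 31.2% of all features. A larger response in Lyn-KO cells was called for 25 and a smaller one for none, beside 6.05% and 5.02% of all features. Of these 25, 24 differed at the start only. At the start 30 of the 61 were lower in Lyn-KO cells and 1 higher, with a median difference of -0.49, and with CpG-B 2 were higher and 2 lower, with a median of -0.02. Over all features 2.75% were lower and 1.83% higher at the start, and 11.2% and 13.9% with CpG-B. The count of 25 depended on single arrays of both states: it was 14 without unstimulated WT replicate 1 or without unstimulated Lyn-KO replicate 2, and 15 without Lyn-KO CpG-B replicate 3. The WT arrays at the start were spread widely, as the following genes show.

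Ifit3, an antiviral protein that interferons induce, was at 6.83, 6.88 and 7.01 in Lyn-KO cells with CpG-B and at 6.87, 6.82 and 6.70 in WT cells with CpG-B. Unstimulated, it was at -1.07, -1.36 and -1.23 in Lyn-KO cells, against 2.09, 0.97 and 0.15 in WT cells. The genotypes overlapped with CpG-B and not at the start, where WT arrays spread over almost 2 log2 units. The difference was -2.29 ± 0.30 at the start (adjusted p = 6.27e-05), and 0.11 ± 0.30 in stimulated cells (adjusted p = 0.836), and the response was larger by 2.40 ± 0.42 (adjusted p = 0.000739). Within the 3 slides the change was 3.12, 2.39 and 1.69. Rsad2, which encodes the antiviral enzyme viperin, was at -1.54, -2.07 and -1.86 in unstimulated Lyn-KO cells, against 0.79, -0.02 and -0.61 in WT cells, and its response was larger by 1.68 ± 0.39 (adjusted p = 0.00821). Ifit2 gained 1.79 ± 0.35 (adjusted p = 0.00199). Irf7, the factor that amplifies interferon alpha production, was not called at the start (-0.54, adjusted p = 0.155) or in its response (0.55 ± 0.28, adjusted p = 0.256).

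**Figure D3:**
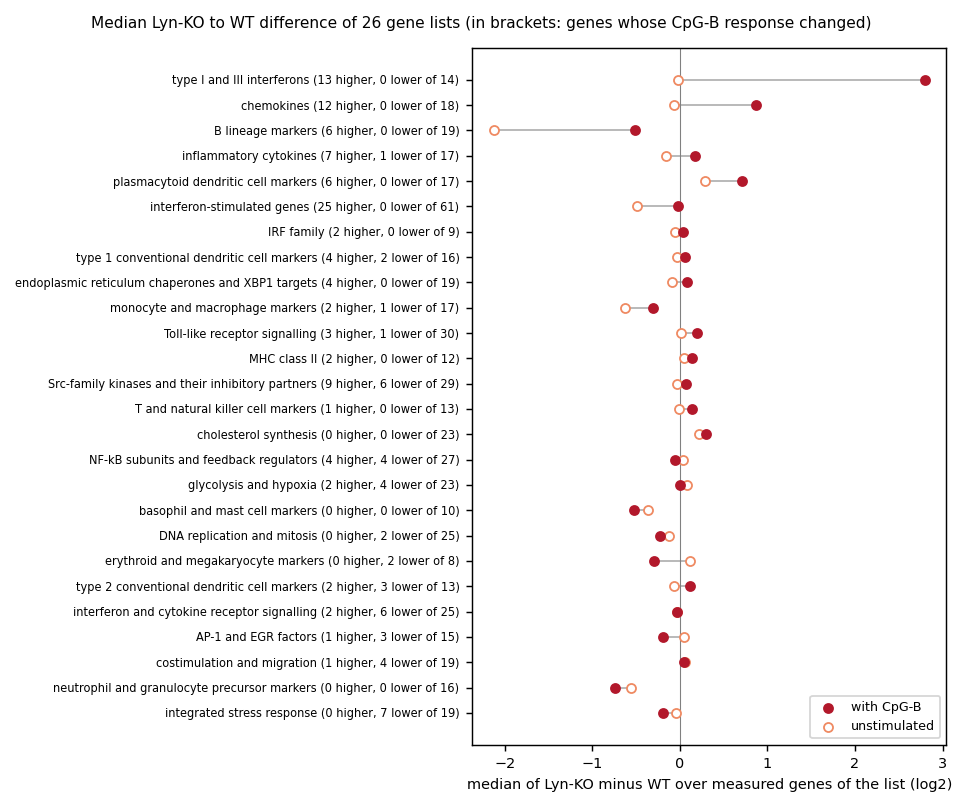
For each of 26 gene lists, the open point is the median difference Lyn-KO minus WT in unstimulated cells and the filled point the same with CpG-B (log2), with counts of genes whose response changed beside the name. Interferons and chemokines moved up with CpG-B from medians of -0.02 and -0.07, while B lineage markers and interferon-stimulated genes started at medians of -2.13 and -0.49. The interferon median at the start includes genes at the background in both genotypes.

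B lineage markers had the largest median difference at the start of the 26 gene lists. Of 19 B lineage markers, 11 were lower in unstimulated Lyn-KO cells and none higher (median -2.13), beside 2.75% and 1.83% of all features. With CpG-B 8 of these markers were lower and 2 higher (median -0.52), beside 11.2% and 13.9% of all features. Their mean level per array was -0.88 to -0.61 in Lyn-KO cells with CpG-B, against 0.23 to 0.41 in WT cells with CpG-B, and -1.12 to -0.999 in unstimulated Lyn-KO cells, against 0.67 to 1.08 in WT cells. Of the 19, 3 had no array above background in Lyn-KO cells with CpG-B and 1 in unstimulated Lyn-KO cells, and all were measured in WT cells. A larger response was called for 6 and a smaller one for none, beside 6.05% and 5.02% of all features.

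Fcmr, the receptor for the Fc part of IgM, had the largest change among named genes with an array above background in each of the 4 groups. It was at 2.32, 2.47 and 2.45 in Lyn-KO cells with CpG-B, against 2.44, 2.39 and 2.33 in WT cells with CpG-B, and unstimulated at -1.04, -1.22 and -1.67 in Lyn-KO cells, against 2.95, 3.01 and 3.41 in WT cells. The groups overlapped with CpG-B and stood far apart at the start. Fcmr rose by 3.72 in Lyn-KO cells and fell by 0.73 in WT cells, a change of 4.46 ± 0.36 (adjusted p = 2.52e-07). Cd79b, a chain of the B cell receptor complex, behaved alike, with a difference of -2.27 ± 0.18 at the start (adjusted p = 2.17e-07), against -0.02 ± 0.18 in stimulated cells (adjusted p = 0.949). Ms4a1, which encodes CD20, was at 0.66, 0.94 and 0.92 in Lyn-KO cells with CpG-B, against 1.68, 1.78 and 2.17 in WT cells with CpG-B. Unstimulated, Ms4a1 was at 0.18, 0.34 and 0.15 in Lyn-KO cells, against 3.51, 3.55 and 4.02 in WT cells. It was lower in Lyn-KO cells in both states, without overlap, and the gap was narrower with CpG-B: the response was larger by 2.43 ± 0.27 (adjusted p = 7.03e-06).

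Other B lineage genes kept their difference. Pou2af1, a coactivator of B cells, was at -0.77, -0.99 and -1.64 in Lyn-KO cells with CpG-B, against 3.60, 3.78 and 4.23 in WT cells with CpG-B, and at -1.95, -2.17 and -2.66 in unstimulated Lyn-KO cells, against 2.15, 2.31 and 2.86 in WT cells. Its difference was -4.70 ± 0.37 at the start and -5.01 ± 0.37 with CpG-B, and the change of the response of -0.30 ± 0.52 was not called (adjusted p = 0.791). Mzb1 and Jchain, which serve antibody assembly and secretion, had differences of -3.88 and -3.46 at the start and of -4.12 and -3.87 with CpG-B, with no called change of the response (adjusted p = 0.824 and 0.634). With the replicate number as a block within each genotype, the change of Jchain of -0.41 was called (adjusted p = 0.0154). The list thus held genes whose gap closed and genes whose gap stayed, and whether the cells that express them were fewer was not tested. Blnk, an adaptor protein below the B cell receptor that plasmacytoid dendritic cells also express, differed with CpG-B only, and its response was larger by 0.55 ± 0.09 (adjusted p = 0.000402). Outside the list, Cxcr5, a homing receptor of follicles, and Cacna1s, a calcium channel subunit, gained 2.36 ± 0.23 (adjusted p = 2.26e-06) and 2.02 ± 0.29 (adjusted p = 0.000106) from lower starts of -2.88 and -2.67. Their smaller differences with CpG-B (-0.52 and -0.64) lost their calls in 5 and 4 of the 12 leave-one-out fits.

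**Figure D4:**
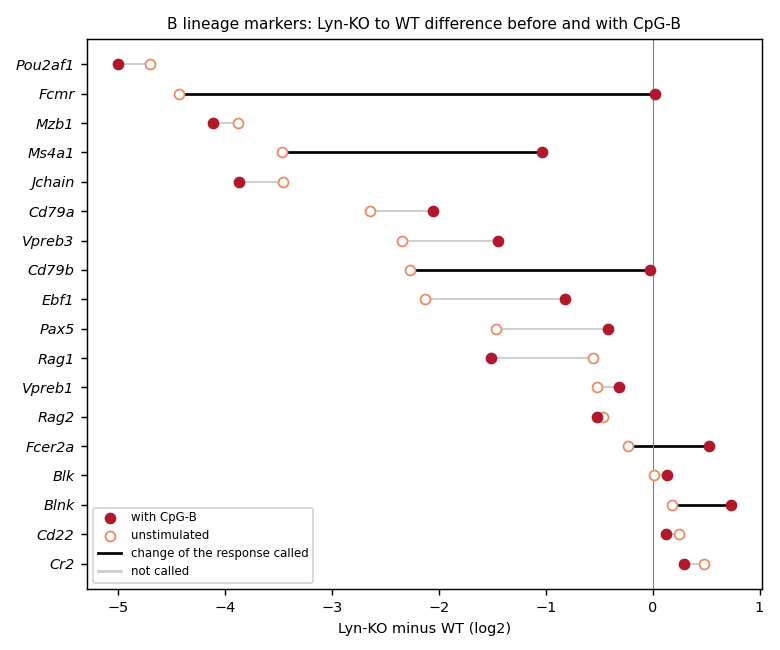
Each row is 1 of 18 measured B lineage markers, with the difference Lyn-KO minus WT in unstimulated cells (open) and with CpG-B (filled), and a black line where the change of the response was called. Fcmr, Ms4a1 and Cd79b moved towards 0 with CpG-B, and Pou2af1, Mzb1 and Jchain stayed between -3.46 and -5.01.

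Of the 1015 negative changes, 486 were of features that WT cells induced and Lyn-KO cells induced less or not detectably. A further 346 were of features that fell in WT cells and fell further in Lyn-KO cells. Bzw2, a regulator of translation initiation, was at 2.72, 2.53 and 2.42 in Lyn-KO cells with CpG-B, against 4.83, 4.75 and 4.99 in WT cells with CpG-B, and its unstimulated levels overlapped between 3.09 and 3.18. It fell by 0.59 in Lyn-KO cells and rose by 1.74 in WT cells, a change of -2.33 ± 0.12 (adjusted p = 2.92e-09). Fosl2, a subunit of AP-1, was at -0.42, -0.20 and -0.07 in Lyn-KO cells with CpG-B, against 1.70, 1.84 and 2.06 in WT cells with CpG-B. It too fell in Lyn-KO cells, by 1.36, and rose by 1.01 in WT cells (change -2.37 ± 0.24, adjusted p = 2.28e-06). Thbs3, an extracellular thrombospondin, had the same opposite responses (change -2.95 ± 0.24, adjusted p = 2.12e-07).

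Several other genes rose in WT cells and less so, or not detectably, in Lyn-KO cells. Igfbp6, a binding protein of insulin-like growth factors, was at -1.35, -1.36 and -1.59 in Lyn-KO cells with CpG-B, against 1.32, 1.24 and 1.46 in WT cells with CpG-B. Its response was 0.13 in Lyn-KO cells (adjusted p = 0.584) and 2.66 in WT cells. Ptger2, a receptor for prostaglandin E, responded by 0.58 in Lyn-KO cells and 2.91 in WT cells, and Rrad, a small GTPase, by 2.02 in Lyn-KO cells and 4.23 in WT cells. The changes of these 3 genes were -2.53 ± 0.28, -2.32 ± 0.19 and -2.21 ± 0.16 (adjusted p of 7.03e-06, 2.21e-07 and 7.89e-08). Neurl1a, a ubiquitin ligase, and Soat2, which esterifies cholesterol, changed by -2.56 and -2.24 in the same way. Sphk1, which makes sphingosine 1-phosphate, and Fabp4, a fatty acid binding protein, changed by -2.21 ± 0.33 and -2.06 ± 0.30 and changed sides, with higher levels in unstimulated Lyn-KO cells (0.90 and 0.77, adjusted p = 0.0301 and 0.0436). These starts lost their calls in 4 and 7 of the 12 leave-one-out fits. Il34, a ligand of the receptor Csf1r, differed in kind: it fell by 2.37 in Lyn-KO cells and had no called response in WT cells (-0.07, adjusted p = 0.736).

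Some genes had a group with no array well above background. Muc1, a membrane mucin, was not well above background on any array of unstimulated cells or of Lyn-KO cells with CpG-B, and stood at -0.57, -0.91 and -0.59 in WT cells with CpG-B. With CpG-B it was at least 7.85-fold lower in Lyn-KO cells (adjusted p = 3.93e-06), and Gfra1, a coreceptor for the growth factor GDNF, was at least 4.44-fold lower in the same way (adjusted p = 5.2e-06). Among the 4 groups, Muc1 and Gfra1 were well above background only in WT cells with CpG-B. They could thus be named only through the group where they were high, and their p-values are no separate support. Hamp, which encodes the iron hormone hepcidin, was above background in both genotypes with CpG-B, at -2.37, -2.83 and -2.54 in Lyn-KO cells, against 1.29, 1.48 and 1.63 in WT cells. It differed by -4.05 ± 0.41 with CpG-B (adjusted p = 7.15e-07). Timd2, a receptor of the TIM family, was not well above background in Lyn-KO cells with CpG-B and at least 19.7-fold lower there than in WT cells with CpG-B (adjusted p = 8.49e-09). It was lower in Lyn-KO cells at the start as well (-1.78 ± 0.33, adjusted p = 0.0023).

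Feedback regulators of NF-kB were divided. Of 27 genes of NF-kB subunits and feedback regulators, 4 had a larger and 4 a smaller response, all 8 with a difference with CpG-B only, and the median change was -0.04. Over all features 6.05% had a larger and 5.02% a smaller response. Tnfaip3, which encodes the ubiquitin-editing inhibitor A20, was at 5.95, 5.96 and 5.93 in Lyn-KO cells with CpG-B, against 6.75, 6.62 and 6.69 in WT cells with CpG-B. Its response was smaller by 0.81 on the log2 scale (-0.81 ± 0.11, adjusted p = 6.23e-05), and that of Tnip3, a partner of A20, changed by -1.03 ± 0.15 (adjusted p = 0.000155). Nfkbiz, a nuclear cofactor of NF-kB that is itself induced, went the other way, with a response larger by 0.94 ± 0.20 (adjusted p = 0.00414). Of 15 AP-1 and EGR factors 3 had a negative change of the response, Fosl2 and Egr2 among them, and 1 a positive one. Egr2 fell with CpG-B by 3.84 in Lyn-KO cells and by 2.43 in WT cells (change -1.41 ± 0.35, adjusted p = 0.0116).

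Molecules that touch T cells also changed in both directions. Among 19 genes of costimulation and migration 4 had a smaller response and 1 a larger one, beside 5.02% and 6.05% of all features. Pdcd1lg2, which encodes the inhibitory ligand PD-L2, was at 1.21, 1.23 and 1.35 in Lyn-KO cells with CpG-B, against 2.32, 2.45 and 2.45 in WT cells with CpG-B (change -1.43 ± 0.18, adjusted p = 3.34e-05). Cd86, a costimulatory ligand, changed by -0.54 ± 0.10 (adjusted p = 0.00173). Cd70, the ligand of CD27, was the one with a larger response: it was at 2.91, 2.67 and 2.75 in Lyn-KO cells with CpG-B, against 2.11, 2.06 and 2.03 in WT cells with CpG-B, and at -2.02, -2.03 and -2.06 in unstimulated Lyn-KO cells, against -1.06, -0.97 and -0.58 in WT cells. Its genotypes changed sides without overlap in either state (change 1.87 ± 0.17, adjusted p = 1.1e-06). Of the MHC class II genes, H2-Eb2 had a larger response (0.78 ± 0.14, adjusted p = 0.00073).

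Relatives and partners of Lyn changed as well. Of 29 genes of Src-family kinases and their inhibitory partners, Lyn included, 9 had a larger and 6 a smaller response, beside 6.05% and 5.02% of all features. Of these 15 genes, 12 had a difference with CpG-B only. Fgr, another kinase of the family, was at 2.57, 2.57 and 2.56 in Lyn-KO cells with CpG-B, against 3.42, 3.47 and 3.54 in WT cells with CpG-B, and its unstimulated levels overlapped. It fell by 0.27 in Lyn-KO cells and rose by 0.76 in WT cells (change -1.04 ± 0.11, adjusted p = 4.78e-06). Fyn, also of this family, was higher in unstimulated Lyn-KO cells (0.30 ± 0.06, adjusted p = 0.00452) and lower in Lyn-KO cells with CpG-B (-0.44 ± 0.06, adjusted p = 1.89e-05). Among the inhibitory receptors, Pirb was at 6.40, 6.44 and 6.42 in Lyn-KO cells with CpG-B, against 7.11, 7.12 and 7.12 in WT cells with CpG-B (change -0.82 ± 0.08, adjusted p = 1.8e-06). Fcgr2b, the inhibitory Fc receptor, changed by -0.76 ± 0.17 (adjusted p = 0.00694). Cd33, a lectin receptor that binds sialic acid, went the other way, with levels of 1.48, 1.35 and 1.40 in Lyn-KO cells with CpG-B, against 0.51, 0.36 and 0.19 in WT cells with CpG-B (change 1.11 ± 0.15, adjusted p = 4.64e-05). Lilrb4a, an inhibitory receptor of the leukocyte immunoglobulin-like family, gained 0.85 ± 0.11 (adjusted p = 4.48e-05). Ptpn6, the phosphatase SHP-1 that such receptors recruit, rose by 0.53 in Lyn-KO cells and had no called response in WT cells (-0.01, adjusted p = 0.925), a change of 0.54 ± 0.07 (adjusted p = 7.96e-05). Syk, the kinase that acts downstream of activating receptors, gained 0.47 ± 0.09 (adjusted p = 0.00241).

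Genes of receptors and stress pathways gave smaller numbers. Of 25 genes of interferon and cytokine receptor signalling, 2 had a larger and 6 a smaller response, beside 6.05% and 5.02% of all features. Ifnlr1, a chain of the receptor for type III interferons, was at 1.95, 2.16 and 2.47 in Lyn-KO cells with CpG-B, against 0.24, 0.49 and 0.04 in WT cells with CpG-B (change 1.77 ± 0.29, adjusted p = 0.000463), and Jak1, a kinase of cytokine receptors, changed by -0.56 ± 0.08 (adjusted p = 0.000154). Of 19 genes of the integrated stress response, 7 had a smaller response and none a larger one (median change -0.22), and 4 were left without unstimulated WT replicate 1 or without unstimulated Lyn-KO replicate 3. Ddit4, an inhibitor of the kinase mTOR, fell by 1.24 in Lyn-KO cells and had no called response in WT cells (change -1.15 ± 0.21, adjusted p = 0.000985). Phgdh, the first enzyme of serine synthesis, changed by -0.88 ± 0.17 (adjusted p = 0.00225). None of 23 genes of cholesterol synthesis had a called change in limma (4 at an unadjusted p under 0.05), while 10 were higher in Lyn-KO cells with CpG-B, where 13.9% of all features were. At the start 4 were higher, beside 1.83% of all features, and none was without unstimulated Lyn-KO replicate 3. Of 25 genes of DNA replication and mitosis 2 had a smaller response, beside 5.02% of all features. With CpG-B 14 of the 25 were lower in Lyn-KO cells, beside 11.2% of all features.

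Markers of dendritic cells were measured in every group, apart from 2 of 16 type 1 markers with CpG-B in both genotypes and 1 of 13 type 2 markers in Lyn-KO cells with CpG-B. Of the 16 type 1 markers 4 had a larger and 2 a smaller response, and of the 13 type 2 markers 2 and 3. Over all features 6.05% had a larger and 5.02% a smaller response. Among type 1 markers, Xcr1, the receptor for Xcl1, fell by 1.41 in Lyn-KO cells and by 3.54 in WT cells (change 2.13 ± 0.33, adjusted p = 0.000285). Irf8, a factor that type 1 and plasmacytoid cells need, was at 7.58, 7.47 and 7.57 in Lyn-KO cells with CpG-B, against 6.94, 6.74 and 6.53 in WT cells with CpG-B (change 0.59 ± 0.13, adjusted p = 0.00467). Batf3, which type 1 cells need as well, changed the other way, by -0.93 ± 0.21 (adjusted p = 0.00583). Among plasmacytoid markers, Atp1b1, a sodium pump subunit, fell by 2.86 in Lyn-KO cells and by 4.13 in WT cells (change 1.27 ± 0.20, adjusted p = 0.00026), and the factor Spib gained 0.49 ± 0.12 (adjusted p = 0.00961). No marker of neutrophils (16 measured) or basophils (10 measured) had a called change of the response in limma, and 2 and 0 had an unadjusted p under 0.05. The neutrophil markers nevertheless differed in level: their mean per array was -0.28 to -0.21 in Lyn-KO cells with CpG-B, against 0.44 to 0.62 in WT cells with CpG-B, and 0.69 to 1.07 in unstimulated Lyn-KO cells, against 1.27 to 1.39 in WT cells. With CpG-B 5 of the 16 were lower in Lyn-KO cells and 1 higher, beside 11.2% and 13.9% of all features. Unstimulated, 1 of the 16 was called lower in Lyn-KO cells and none higher. Of the 16, 3 had no array above background in Lyn-KO cells with CpG-B and 1 in unstimulated Lyn-KO cells, so these means include background signals. At the start 4 of 17 monocyte and macrophage markers were lower and 1 higher, beside 2.75% and 1.83% of all features. The part of these markers in the results was not tested. Adgre1, a marker of macrophages, gained 0.79 ± 0.18 (adjusted p = 0.00716) with no difference called at the start or with CpG-B.

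Smaller responses that went with a difference at the start only were few. Rhoc, a small GTPase, was at 3.70, 3.93 and 4.08 in Lyn-KO cells with CpG-B, against 4.27, 4.33 and 4.46 in WT cells with CpG-B, and unstimulated at 2.08, 2.47 and 2.63 in Lyn-KO cells, against 0.94, 1.64 and 1.89 in WT cells. Its change was -1.36 ± 0.27 (adjusted p = 0.00247), and that of Htra1, a secreted protease, -1.31 ± 0.30 (adjusted p = 0.00645). The starts of both lost their calls without unstimulated Lyn-KO replicate 3 (largest adjusted p 0.0543 and 0.0547). In other genes the same difference was present at the start and grew with CpG-B. Pir, a nuclear protein that binds iron, was at -0.91, -0.79 and -0.80 in Lyn-KO cells with CpG-B, against -3.51, -2.99 and -3.66 in WT cells with CpG-B, and was higher by 0.78 ± 0.12 at the start and by 2.55 ± 0.12 with CpG-B. Tnfrsf13c, the receptor for the B cell factor BAFF, was lower in Lyn-KO cells in both states, with differences of -0.52 at the start and -1.51 with CpG-B (change -0.99 ± 0.16, adjusted p = 0.000359).

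The DKO and Irf5-KO arrays repeat the comparison in cells labelled as lacking Irf5, on arrays that the change above did not use. Irf5 itself did not set these arrays apart: its probe averaged 5.25 in DKO cells with CpG-B and 4.80 in Irf5-KO cells with CpG-B, 4.54 in unstimulated DKO cells and 4.43 in unstimulated Irf5-KO cells, against 4.16 and 4.73 in WT cells with and without CpG-B. Whether this probe lies in the deleted part is not given, so the groups are named by their labels. In arrays labelled DKO against arrays labelled Irf5-KO the response of 3549 features changed (17.6%), 1732 upwards (8.57%) and 1817 downwards (8.99%). Of the 2237 features found between Lyn-KO and WT, 1447 (64.7%) were called in the same direction here, which is 40.8% of the 3549, and 8 in the opposite direction. This overlap was counted in the shared fit only. With only the groups of each contrast in the fit, 1704 features changed between Lyn-KO and WT and 3390 between DKO and Irf5-KO. The sign was the same for 2120 of the 2237 (94.8%). By class, 67.2% of the larger and 68.0% of the smaller responses that differed with CpG-B only were called the same way, and 42.3% of the larger and 27.5% of the smaller ones that differed at the start only.

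Of the 14 interferon genes 13 had a larger response in DKO than in Irf5-KO cells, with a median change of 2.47, and Ifnb1 changed by 3.65 ± 0.35 (adjusted p = 1.07e-06). Of 18 chemokines 10 had a larger response and none a smaller one. Over all features 8.57% had a larger response in this pair and 8.99% a smaller one. Of the 61 interferon-stimulated genes 5 had a larger response, a count that does not set the list apart from all features. Their median was 0.20, and Ifit3 was not called (1.22 ± 0.42, adjusted p = 0.0511). Whether the change itself differed between the 2 pairs of genotypes was tested as a difference of differences, which called 131 features (0.648%), 86 without Lyn-KO CpG-B replicate 2 and 17 without the filter on dim probes. Of the 2237 changed responses, 60 were among them, and none of the interferons, chemokines or interferon-stimulated genes was. Without adjustment, limma gave 1, 1 and 4 genes of these 3 lists a p under 0.05, beside 1899 of 20209 features. With 0.648% of all features called, lists of this size would hold few calls. Their absence does not show that the changes were equal.

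**Figure D5:**
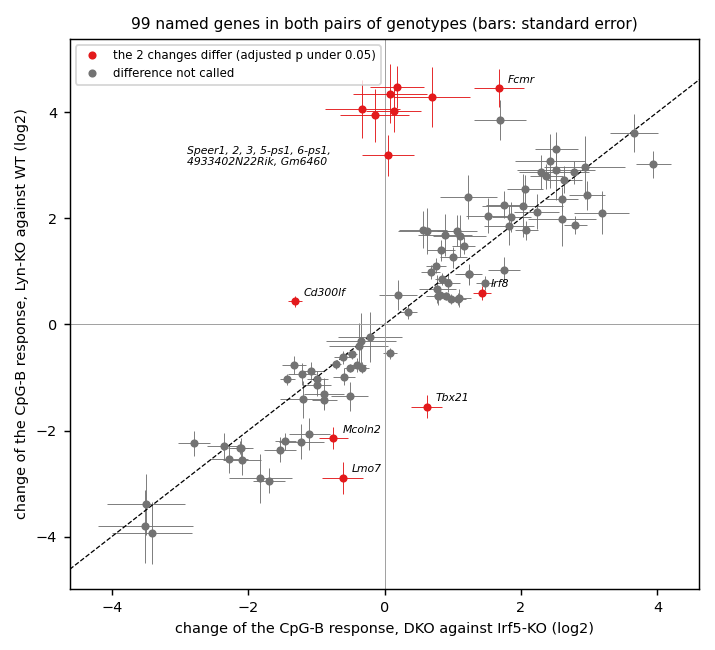
Each point is 1 of 99 named genes, with the change of its CpG-B response in arrays labelled DKO against Irf5-KO on the horizontal axis and in Lyn-KO against WT on the vertical axis (log2, bars are standard errors), and the dashed line marks equal changes. Red points are genes whose 2 changes differed, such as Speer1 (0.13 and 4.03), Fcmr (1.68 and 4.46) and Tbx21 (0.61 and -1.55).

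Genes of the Speer family, rodent genes known from spermatogenic cells, were among those whose changes differed between the 2 pairs. Speer1 was at 2.94, 3.29 and 3.35 in Lyn-KO cells with CpG-B, against 0.80, 0.85 and 0.85 in WT cells with CpG-B, and at -2.08, -2.12 and -2.36 in unstimulated Lyn-KO cells, against -0.90, -0.54 and -0.12 in WT cells. The genotypes changed sides without overlap, and the response was larger by 4.03 ± 0.40 (adjusted p = 2.48e-06). In DKO against Irf5-KO cells the change was 0.13 ± 0.40 (adjusted p = 0.881), and the 2 changes differed by 3.90 ± 0.57 (adjusted p = 0.00416). Speer6-ps1 was at 0.93, 1.27 and 1.29 in Lyn-KO cells with CpG-B, against -1.40, -1.45 and -1.45 in WT cells with CpG-B, and its response was at least 32.7-fold in Lyn-KO cells, where no unstimulated array was well above background. Speer2, Speer3, Speer5-ps1 and the uncharacterised transcript 4933402N22Rik had fitted changes of 3.19 to 4.35 and differed between the pairs by 3.13 to 4.39. Speer3 and Speer6-ps1 were not well above background on any array of unstimulated Lyn-KO cells, where their changes are at least 2.63 and 3.43. No DKO array had Speer2, Speer3 or Speer6-ps1 well above background, so that their differences between the pairs are no exact values. These genes are near copies of each other, so that their probes can share RNA and do not count as separate findings.

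A few genes of known function differed between the pairs too. Tbx21, which encodes the factor T-bet, was at -0.90, -1.19 and -1.29 in Lyn-KO cells with CpG-B, against 0.47, 0.33 and 0.63 in WT cells with CpG-B, while unstimulated cells overlapped. Its change was -1.55 ± 0.22 there and 0.61 ± 0.22 in DKO against Irf5-KO cells (adjusted p = 0.0636), a difference of -2.16 ± 0.31 (adjusted p = 0.00363). Cd300lf, an inhibitory receptor of myeloid cells, changed by 0.44 ± 0.10 (adjusted p = 0.00889) and by -1.32 ± 0.10 (adjusted p = 9.85e-08) in the 2 pairs, a difference of 1.75 ± 0.15 (adjusted p = 1.06e-05), and 1 of its 2 other probes gave the same sign for the first. Fcmr differed by 2.78 ± 0.51 (adjusted p = 0.0173) and Lmo7, a protein of cell junctions, by -2.27 ± 0.43 (adjusted p = 0.0186). The value of Lmo7 is not exact, since no array of unstimulated Lyn-KO or WT cells or of DKO cells had it well above background, and it lost its call with the block within genotypes (adjusted p = 0.0718).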

How the data were processed

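Total RNA of 24 samples, 3 in each of 8 groups, was hybridised in 1 colour to Agilent mouse arrays. The processed signal is an intensity that Feature Extraction 10.7.3.1 had corrected for background and spatial trend, per the file headers, which record no scaling across arrays. A table of log2 values deposited by the authors for the whole series matched shifts to each array's 75th percentile and centring of each probe, and it served as an alternative. Over 13388 probes, 95% of its differences between arrays lay within 0.0143 of those computed here.

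Log2 of the processed signal was taken, its 75th percentile on that array was subtracted and spots of a probe were averaged. Of 62976 spots, 59305 were no controls and held 55681 probes, and 4351 spot values with outlier flags were left out. A probe was kept if some group had it well above background on each of its 3 arrays (26640 probes), the brightest stood for its gene, and 20209 features were tested, 12648 of them named. There were 17 missing values and no saturated probes. Probes had been annotated to mm9, so genes are named through the RefSeq gene list of GRCm38.p6, naming 26762 probes and leaving 28919 without a name.

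All 24 arrays entered 1 limma fit (limma 3.58.1, R 4.3.3) with 1 mean per group, so that the groups share the estimate of the spread (median residual SD 0.134). The number of arrays limits the precision. Tests were checked on simulated data. Where no array of a group was well above background, the probe took on each array the lowest signal called well above background there, or its own value if that was higher, and the fold is a lower bound. The alternatives were other scalings and background corrections, other filters, every probe alone, fewer groups in the fit, the replicate block, another variance prior, the series table and leaving out each array.

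Replicate numbers coincide with the 3 slides, each of which held 1 array per group. Deviations of same-numbered unstimulated and CpG-B arrays of a genotype correlated at 0.139 to 0.281 in all 6 pairs of Lyn-KO and WT (over 0.1 in 11 of 12 pairs of all genotypes). These arrays are therefore taken to be paired within Lyn-KO and WT, but the main fit does not use the pairing. Between genotypes they correlated over 0.1 in 5 of 12 pairs. The fit without a block, chosen with earlier results known, was kept as the main one, and a block within each genotype was added after seeing the data. Unless a block is named, p-values and counts come from the fit without pairing. With the block within genotypes 2613 responses changed, against 2237.

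The comparison, gene lists, naming rule and tests were chosen with earlier results of these data known. Genes could be named if they were among the 15 largest calls each way measured in all 4 groups, the 8 largest each way with an unmeasured group, the 6 largest each way in a class, or in 1 of 26 lists, or were Lyn or Irf5. Of 214 such called genes 92 were named after their values were seen. Calls that ended on leaving out 1 array were mostly passed over, at 2 of the 92 against 57 of all 214 (26.6%).
One B lineage marker that enters the counts of its list is not reported here.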

Additional observations from a re-analysis of the deposited data

Results flagged for a closer look

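The CpG-B response differed between Lyn-KO and WT cells in 2237 features by the test of the difference itself. The change in turn differed between Lyn-KO against WT and the arrays labelled DKO against Irf5-KO in 131 features. Among the named genes such fitted differences were found in the Speer family and its relatives, with 4.29 for Speer6-ps1, 4.39 for Speer3, 4.27 for 4933402N22Rik, 4.09 for Speer2, 3.90 for Speer1, 3.59 for Gm6460 and 3.13 for Speer5-ps1 (log2, positive where the change was larger in Lyn-KO against WT). Those of Speer6-ps1, Speer3, Speer2 and Gm6460 are no exact values, since no DKO array was well above background. Speer1 and Speer6-ps1 held in every alternative run, and Gm6460 was lost in 26 of 33. Fcmr differed by 2.78 and Cd300lf by 1.75. Differences were negative for Lmo7 (-2.27, not exact either), Tbx21 (-2.16), Mcoln2 (-1.39), an ion channel of endosomes, and Irf8 (-0.84). Tbx21 and Cd300lf held in all 34 alternatives, while Mcoln2 was lost in 20 and Irf8 in 23 of 34.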

How the results depend on the processing

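Without the filter on dim probes 1395 features had a changed response, 609 differed at the start and 17 changes differed between the pairs of genotypes, and the classes by start and CpG-B held 85 (start only), 1183 (CpG-B only), 62 (both) and 65 (neither), with 37108 features tested. The start counted 321 when the fit held no other groups, and the class of neither 166 after normexp. Leaving out 1 array gave 1748 to 2245 changed responses, 593 to 1063 differences at the start, 4063 to 4734 with CpG-B, 2924 to 3500 changed responses in DKO against Irf5-KO and 86 to 179 that differed between the pairs, lowest without Lyn-KO CpG-B replicate 2. The classes then held 105 to 225, 1423 to 1775, 75 to 127 and 68 to 178. For none of these was the cause tested. In the other alternatives these counts kept within 1.5 times, where they were run (the fit of the contrast's groups gave no classes). Positive changes of the response made up 54.6% of the calls. They made up 44.7% with each array scaled to its median over probes that every array detected, where the median change over all features was -0.01. The replicate block by slide raised the count of changed responses to 2632 and the one within genotypes, where the arrays are paired, to 2613. Neither ended a named change of the response, and the other counts run with them stayed within 1.5 times. Both ended the difference between pairs of Gm6460, and the block within genotypes also those of Mcoln2 and Lmo7, and it added the change of Jchain. Of 92 named calls, normexp ended 3 (Cd300lf, Irf8 and H2-Eb2), the fit of the contrast's groups 3 (Ifna13, Ifnl3 and Batf3), leaving out 1 array 2 (Ifna13 and Ifnl3), and each other alternative at most 1. None reversed. Ifnl3 lost its call in 16 of 23 alternatives. With only probes detected on all 24 arrays in the fit, 1 interferon gene counted as changed, since genes at the background on any array were not tested there. All 59 named calls that were tested there were kept. Leaving out 1 array took the larger responses to 1 of 3 (Toll-like receptor signalling), 1 of 2 (IRF family), 1 of 2 (MHC class II), 2 of 4 (chaperones), 0 of 2 (glycolysis) and 2 of 4 (type 1 markers), and the smaller ones of type 2 markers to 1 of 3. The interferon-stimulated list counted 13 without the filter and 15 with the groups of the contrast. Genes at the background have only bounds, and 139 changed responses had a group with no array well above it.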
